A study of Mus musculus with 12 samples.

Results

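Plasma cells are the antibody-secreting end stage of the B lineage, and the bone marrow is where long-lived ones reside. The 10 genes described here are 6 that serve the plasma cell programme, Irf4, Prdm1, Xbp1, Sdc1, Mzb1 and Jchain, and 4 constant genes of antibody classes made after class switching, Ighg1, Ighg2b, Ighg2c and Igha. They were chosen by symbol from a table of 53801 genes, and all 10 were among the 15119 that were abundant enough to test. RNA came from whole bone marrow of C57BL/6N mice in 12 libraries, 3 in each of 4 groups. MI-E mice had a myocardial infarction and EMPA, MI mice an infarction without EMPA, Sham-E mice a sham operation and EMPA, and Sham mice a sham operation alone. Infarction was made by tying off the LAD, the artery that feeds the front of the heart, and EMPA is given in the labels by this short form only. The sources used here do not give the dose, the time after surgery, the sex and age of the mice, or whether each library came from a separate mouse. P-values therefore measure the spread between these libraries, which may be technical. The labels name no sorting, and other cells of the marrow can also make some of these transcripts. Fewer plasma cells, less RNA per plasma cell and changes in other cells thus cannot be told apart in any result here.

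In a B cell that becomes a plasma cell, the factor encoded by Irf4 helps to switch on Prdm1, whose product Blimp-1 shuts down the B-cell programme, and Xbp1 expands the endoplasmic reticulum for secretion. Irf4 is also active earlier, in pre-B cells, and Xbp1 serves secretory stress in many cell types, so neither is a marker of plasma cells alone. Sdc1 encodes the surface proteoglycan CD138, Mzb1 a chaperone-like protein of the endoplasmic reticulum, and Jchain the small chain that joins IgM and IgA monomers into polymers. Class switching replaces the first-used constant gene, Ighm, with one lying further along the same chromosome, which changes the antibody class and leaves the antigen-binding part as it was. On mm10, Irf4 lies at chr13:30749226-30766976, Xbp1 at chr11:5520659-5525893 and Sdc1 at chr12:8771323-8793715, all on the plus strand, and Prdm1 at chr10:44437177-44528501 and Jchain at chr5:88519809-88527891 on the minus strand.

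The 4 constant genes are neighbours on the minus strand of mm10 chromosome 12, in the order Ighg1 (113325240 to 113330523), Ighg2b (113302965 to 113307933), Ighg2c (113285325 to 113288932) and Igha (113254830 to 113260236). The IgG genes are close copies, so their counts rest on the bases in which they differ. In the exon of the second constant domain, Ighg2b and Ighg2c were 94.2% identical, whereas in the hinge exon they were 77.3% identical. The hinge, the flexible stretch between the arms and the stem of the antibody, is shown because, of the exons of the first domain, the hinge and the second domain, it differs most between the 3 subclasses. The sequences are from GENCODE M21 transcripts on mm10, 5′ to 3′ on the minus strand, and capitals mark bases that lie in no run of 15 bases shared with either of the other genes.
Ighg1 hinge (chr12:113329844-113329882): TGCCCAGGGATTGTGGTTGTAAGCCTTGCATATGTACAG
Ighg2b hinge (chr12:113307261-113307326): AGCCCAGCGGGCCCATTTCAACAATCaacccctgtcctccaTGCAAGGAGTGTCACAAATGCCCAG
Ighg2c hinge (chr12:113288263-113288325): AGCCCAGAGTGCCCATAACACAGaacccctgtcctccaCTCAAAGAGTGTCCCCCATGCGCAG
All 39 bases of the Ighg1 hinge, 51 of 66 in Ighg2b and 48 of 63 in Ighg2c were distinct in this sense. Of all stretches of 50 bases in their transcripts, 0.393% for Ighg1, 4.15% for Ighg2b and 5.49% for Ighg2c also occurred in a transcript of another gene, and 0% for Igha, Jchain, Irf4, Prdm1 and Xbp1. For Sdc1 it was 0.782%, in a pair of Gm models at 0 counts in all libraries. For Mzb1 it was 53.5%, all within SPATA24, an overlapping model on the same strand of GENCODE M21 that has no row in the counts used here. Reads from that model would count towards Mzb1, whose values are uncertain to that extent.

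Total counts ran from 21175087 to 24606783 per library. Correlations of log2 CPM (counts scaled to a fixed library size) across genes between libraries of a group were 0.981 to 0.985 in MI-E, 0.947 to 0.970 in MI, 0.945 to 0.981 in Sham-E and 0.985 to 0.987 in Sham. Sham-E 1 stood apart from the other libraries of its group. In Sham-E against Sham, fold changes of Irf4, Sdc1, Mzb1 and Xbp1 are given with and without it. Correlations between genes, shares of antibody classes and counts over gene lists include it unless stated. The mean insert length recovered from counts and TPM was 263.6 to 265.8 bp in MI and 271.2 to 287.6 bp in the other libraries, so it moved with every difference between MI and another group, and its part in them was not tested. Mitochondrial genes likewise took 2.23 to 3.58% of counts in MI and 1.33 to 1.87% elsewhere. Marrow identity was plain in all libraries, with a summed 27860 to 51230 CPM over 12 neutrophil markers. Among other plasma cell genes, Tnfrsf17, which encodes the survival receptor BCMA, was near the limit of counting, at 0.370 ± 0.342 CPM in MI-E, 0.221 ± 0.204 in MI, 0.540 ± 0.614 in Sham-E and 0.481 ± 0.112 in Sham (SD, n = 3 each).

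Per length, Igha was the most abundant of the 10 genes in all libraries. It had 778 ± 39.8 TPM (transcript counts per length, scaled to a fixed sum) in MI-E, 667 ± 164 in MI, 928 ± 226 in Sham-E and 1141 ± 176 in Sham (SD, n = 3 each). Next on this scale in Sham came Jchain (237 ± 23.0 TPM) and Ighg2b (199 ± 103 TPM), which overlapped, then Xbp1 (113 ± 8.03), Ighg2c (87.9 ± 38.0), Ighg1 (85.02 ± 11.3) and Mzb1 (67.3 ± 9.29), each overlapping its neighbour in this order. Irf4 (26.7 ± 4.84 TPM), Sdc1 (9.71 ± 0.650) and Prdm1 (1.05 ± 0.191) followed, each apart from its neighbours. Prdm1, the factor that defines the plasma cell state, was thus the scarcest transcript of the set, with 49 to 112 counts per library.

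**Figure D1:**
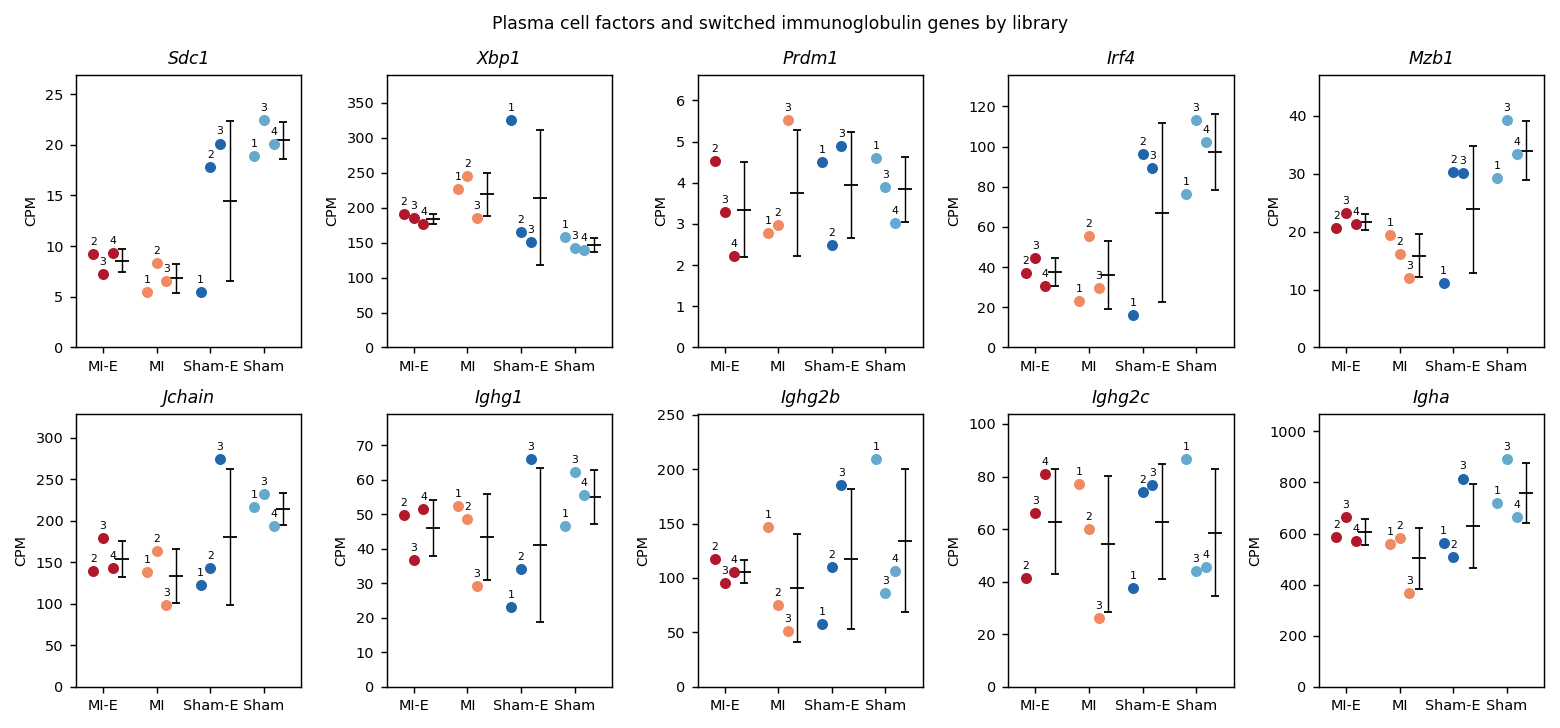
CPM of each gene (vertical axis, starting at 0) in the 12 libraries, by group, with the library's column number above each point and mean ± SD in black (n = 3). Sdc1, Irf4 and Mzb1 are lower in each MI library than in each Sham library, Xbp1 is higher, and Sham-E 1 lies far from Sham-E 2 and 3 in these genes.

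MI was set against Sham to read the effect of infarction. None of the 10 genes passed an adjusted p of 0.05 by edgeR over all genes tested, where 0.417% of genes did. At an unadjusted p under 0.05, 5 of the 10 were lower in MI and 1 was higher, against 8.61% of all tested genes lower and 10.9% higher. In the same 5 genes every MI library lay below every Sham library, which held for 13.8% of all genes, and in the 1 higher gene every MI library lay above, which held for 13.4%. DESeq2 called 3 of the 10 lower (Sdc1, Irf4 and Mzb1), where 3.49% of all genes were called lower. The limma-voom fit called 0, where 0.304% of genes passed in either direction, and limma on log2(TPM + 1) called Sdc1 lower, as it did 1.57% of all genes. The median log2 fold change of the 10 was −0.58, beside 0.02 for all genes tested.

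Sdc1, the CD138 gene, had the largest difference of the 10. It was at 5.501, 8.38 and 6.56 CPM in MI 1, 2 and 3, against 18.9, 22.4 and 20.1 CPM in Sham 1, 3 and 4. The highest MI library was thus below the lowest Sham library by a wide margin. The log2 fold change was −1.59 ± 0.37 (SE; edgeR adjusted p = 0.067), and over 24 alternatives it ranged from −1.85 to −1.46 with 5 past the threshold.

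Irf4 was at 23.2, 55.5 and 29.8 CPM in MI 1, 2 and 3, against 76.2, 113 and 102 CPM in Sham 1, 3 and 4. MI 2 was the MI library nearest to Sham. The log2 fold change was −1.43 ± 0.54 (SE; edgeR adjusted p = 0.18). Mzb1 (chr18:35647267-35649367, minus strand) was at 19.4, 16.2 and 11.9 CPM in MI, against 29.2, 39.3 and 33.4 CPM in Sham, with no overlap, and its log2 fold change was −1.10 ± 0.31 (SE; edgeR adjusted p = 0.099). The fit shares its estimate of spread with all 4 groups. With Sham-E 1 left out of it, Sdc1 (edgeR adjusted p = 0.00094), Mzb1 (0.0047), Irf4 (0.014) and Xbp1 (0.021) passed the threshold at fold changes that moved by at most 0.01. In that fit 3.78% of all genes passed lower and 4.12% higher, 1224 in all, against 63 with Sham-E 1. With any other single library left out, none of these genes passed. The highest edgeR adjusted p over single libraries left out was 0.22 for Sdc1, 0.27 for Mzb1, 0.39 for Irf4 and 0.46 for Xbp1.

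Xbp1 went the other way. It had 226, 246 and 185 CPM in MI 1, 2 and 3, against 158, 142 and 140 CPM in Sham 1, 3 and 4, so that each MI library was above each Sham library. The log2 fold change was 0.58 ± 0.24 (SE; edgeR adjusted p = 0.21). Deposited counts are per gene, so the spliced form of Xbp1 mRNA, which encodes the active factor, was not read apart from the unspliced form. Prdm1 did not separate the groups, with 2.77, 2.97 and 5.53 CPM in MI and 4.61, 3.90 and 3.02 CPM in Sham. Its log2 fold change was −0.03 with a 95% interval from −0.89 to 0.82, which leaves room for a difference of nearly that size in either direction.

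Among the secreted products, Jchain had 138, 164 and 98.8 CPM in MI 1, 2 and 3, against 216, 233 and 194 CPM in Sham 1, 3 and 4. Igha, the IgA heavy chain gene, had 559, 582 and 366 CPM in MI, against 718, 891 and 665 CPM in Sham. Both were lower in each MI library than in each Sham library. Their log2 fold changes were −0.68 ± 0.27 for Jchain and −0.59 ± 0.22 for Igha (SE; edgeR adjusted p = 0.20 and 0.17). The 3 IgG genes overlapped between the groups. Ighg1 had 52.5, 48.5 and 29.1 CPM in MI, against 46.7, 62.3 and 55.6 CPM in Sham. Ighg2b had 147, 75.6 and 50.9 CPM in MI, against 209, 86.6 and 107 CPM in Sham, and its spread within Sham came from Sham 1. Ighg2c had 77.1, 59.9 and 26.1 CPM in MI, against 86.6, 43.9 and 45.6 CPM in Sham. MI 3 was the lowest of the MI libraries in all 3 IgG genes, and edgeR adjusted p-values were 0.60 for Ighg1, 0.55 for Ighg2b and 0.91 for Ighg2c.

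**Figure D2:**
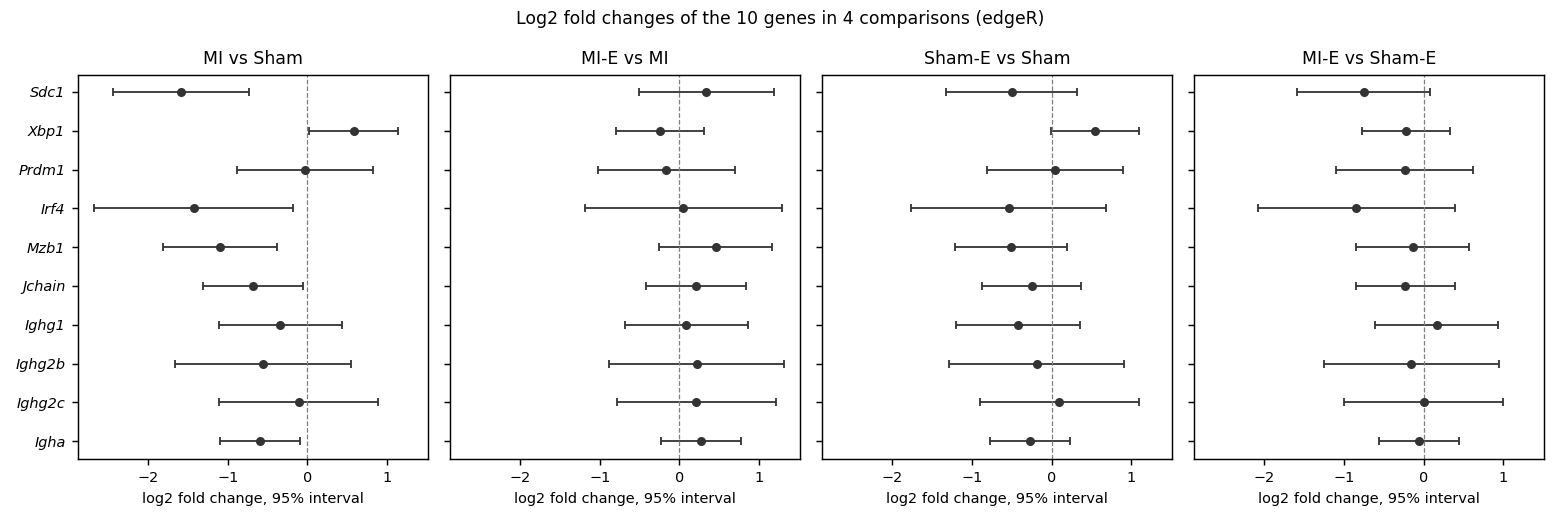
Log2 fold change (horizontal axis) with its 95% interval for the 10 genes in 4 comparisons, from edgeR fits to all 12 libraries. In MI against Sham, intervals for Sdc1, Irf4, Mzb1, Jchain and Igha lie below 0 and that for Xbp1 above 0 before adjustment for the number of genes, while all intervals of MI-E against MI include 0.

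The genes differed in which others they followed over the 12 libraries, and this is given as a description, since the closest genes were picked as such and all libraries share their groups. Irf4 was closest to Bach2 (Pearson r = 0.995, Spearman rho = 1.00), a repressor that holds back plasma cell formation, then to Cpm (r = 0.989) and Blnk (r = 0.981), the adaptor of the pre-B and B-cell receptors. With each group's mean removed, r of Irf4 with Bach2 was 0.994, and without the 2 libraries farthest from the median it was 0.992. Of the 100 genes nearest to Irf4, 5 were among the 10 pro-B and pre-B markers, such as Rag1. Sdc1 was closest to Prkca (r = 0.974), Chst3 (r = 0.973) and Blnk (r = 0.972), and its r with Irf4 was 0.937. Mzb1 was closest to Rnf157 (r = 0.978). Blnk was thus among the 3 nearest genes of both Irf4 and Sdc1.

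Igha and Jchain were close to each other, with r = 0.928 between them (0.890 with group means removed). Jchain also followed Mzb1 (r = 0.798), Sdc1 (0.767) and Irf4 (0.752), at 0.649, 0.564 and 0.592 with group means removed. Of the 100 genes nearest to Igha, 12 were immunoglobulin segments and 0 were pro-B or pre-B markers. Ighg2b and Ighg2c had r = 0.778 with each other, against 0.638 and 0.436 for Ighg1 with each of them, and 4.15% and 5.49% of their 50-base stretches are shared with other genes. Prdm1 had no close follower, its highest r being 0.805 (Tbc1d16), and its r with the other 9 genes lay between −0.54 and 0.06. Xbp1 was opposed to Irf4 (r = −0.81), Sdc1 (−0.826) and Mzb1 (−0.841) and was closest to Atp11a (r = 0.972).

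**Figure D3:**
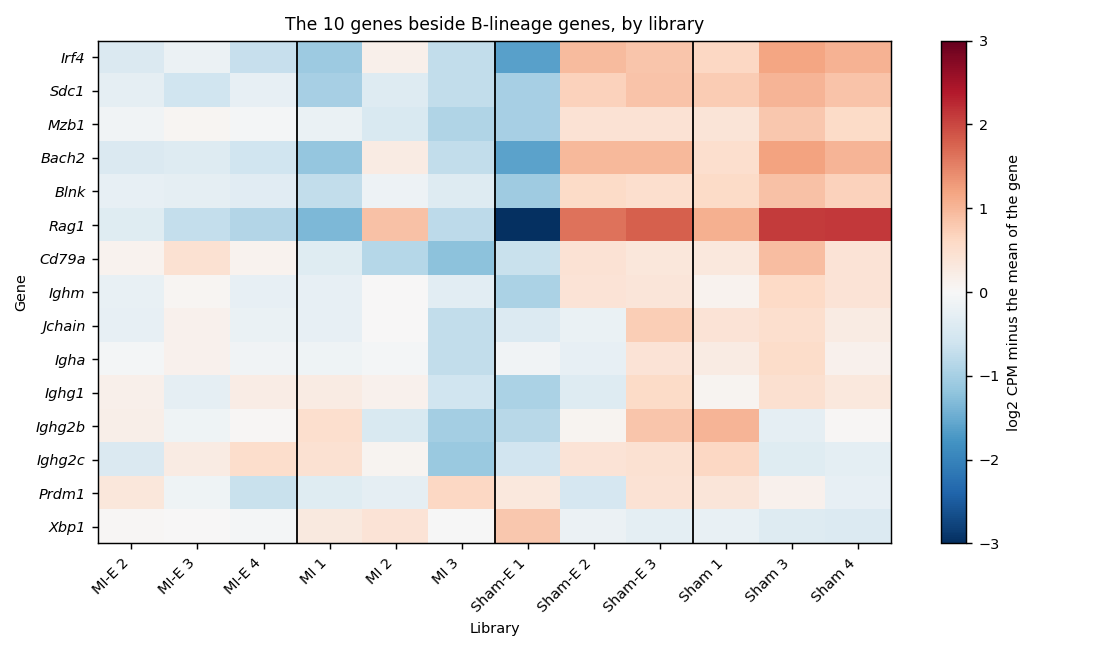
Log2 CPM minus each gene's mean (colour, cut at −3 and 3) for the 10 genes and 5 B-lineage genes, picked after their values were seen, across the 12 libraries in group order. Irf4, Sdc1 and Mzb1 are low in Sham-E 1, as are Bach2, Blnk, Rag1, Ighm and the IgG genes, while Igha stays near its mean there. Rag1 in Sham-E 1 lies beyond the colour range at −5.52. In MI 2, Irf4 (0.154), Bach2 (0.245) and Rag1 (0.877) lie above their means, and Sdc1 (−0.39), Mzb1 (−0.46) and Blnk (−0.146) below.

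Promoters are shown for Irf4 and Sdc1, which ran together, and for Xbp1, which ran against them. RefSeq sequences on GRCm38.p6 (the mm10 assembly), from 250 bases before to 50 after the start that the table lists for a gene, were given for 5 of the 10 genes (Irf4, Prdm1, Xbp1, Sdc1 and Jchain). For Prdm1 the window (chr10:44458699-44458998, minus strand) lies within the gene as given above, not at its 5′ end. Capitals mark matches, on either strand, to any of 6 motifs: GAAA repeated after a gap of 2 bases, the paired site of interferon regulatory factors, the same with GGAA in first place, which is the composite site of ETS and IRF factors, GNGAAAG, a core of the Blimp-1 site, TGACGTGG, an XBP1 element, CCACG, a core found in XBP1 sites, and TATAAA. The Blimp-1 core can overlap either of the first 2, and the reverse complement of the XBP1 core lies within the XBP1 element.
Irf4 promoter (chr13:30748983-30749282, plus strand): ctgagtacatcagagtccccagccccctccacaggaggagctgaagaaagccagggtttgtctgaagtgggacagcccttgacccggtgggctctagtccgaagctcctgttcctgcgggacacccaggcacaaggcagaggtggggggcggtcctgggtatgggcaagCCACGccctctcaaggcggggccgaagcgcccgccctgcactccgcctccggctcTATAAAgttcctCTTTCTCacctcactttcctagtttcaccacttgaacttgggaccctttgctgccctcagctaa
Sdc1 promoter (chr12:8771146-8771445, plus strand): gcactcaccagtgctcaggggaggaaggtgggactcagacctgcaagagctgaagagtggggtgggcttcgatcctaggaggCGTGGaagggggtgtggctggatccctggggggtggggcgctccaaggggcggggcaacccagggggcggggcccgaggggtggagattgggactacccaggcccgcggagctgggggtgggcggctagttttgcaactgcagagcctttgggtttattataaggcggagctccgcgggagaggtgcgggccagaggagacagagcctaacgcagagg
Xbp1 promoter (chr11:5520391-5520690, plus strand): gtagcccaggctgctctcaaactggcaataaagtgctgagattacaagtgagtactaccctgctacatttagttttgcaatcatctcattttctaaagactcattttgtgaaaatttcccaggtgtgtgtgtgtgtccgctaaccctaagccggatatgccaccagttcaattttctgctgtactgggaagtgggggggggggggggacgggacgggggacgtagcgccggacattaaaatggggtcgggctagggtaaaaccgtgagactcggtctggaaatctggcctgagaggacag
The Irf4 window held GNGAAAG once, as its reverse complement just before the start, CCACG once and TATAAA once, and the Sdc1 window held CCACG once. None of the 6 was in the Xbp1 or Jchain window, and the internal Prdm1 window held CCACG in 2 places. Over all 32851 promoters of the table, 22.6% held GNGAAAG, 32.8% CCACG, 13.6% TATAAA, 3.44% the paired site, 2.72% the composite site and 0.676% TGACGTGG. The share of G and C was 61.0% in the Irf4 window, 66.3% in Sdc1, 59.7% in Prdm1, 51.0% in Xbp1 and 42.3% in Jchain. Over all promoters of the table the median was 52.7% and the quartiles 45.7% and 61.7%. Sdc1 thus lay above the upper quartile and Jchain below the lower, with Irf4, Prdm1 and Xbp1 between them.

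Heavy chain constant genes were then set against each other as shares of their summed TPM, which reads the balance of antibody classes without regard to their total. These transcripts come from B cells as well as plasma cells, and gene-level counts do not separate membrane from secreted forms or germline transcripts. Igha held 41.2 ± 0.860% in MI-E, 38.7 ± 2.25% in MI, 41.0 ± 9.97% in Sham-E and 40.6 ± 2.33% in Sham (SD, n = 3 each). Ighm, the unswitched class, held 38.4 ± 1.58% in MI-E, 43.1 ± 6.56% in MI, 39.5 ± 10.3% in Sham-E and 42.9 ± 5.28% in Sham. The group means of Igha and of Ighm differed by less than the spread within Sham-E. That spread includes Sham-E 1, without which the Sham-E mean of Igha was 35.9%. Ighg2b was the leading IgG in every group, at 7.14 ± 1.24% in MI-E, 6.74 ± 2.90% in MI, 6.93 ± 1.99% in Sham-E and 7.22 ± 3.91% in Sham. Ighg3 held at most 0.776% and Ighe at most 0.0299% in any library.

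Single libraries moved the balance more than groups did. In Sham-E 1, Igha reached 51.2% and Ighm 29.4%, against 31.3% and 49.95% in Sham-E 2, so that the ratio of Igha to Ighm TPM was 1.74 in the first and 0.627 in the second. Over the other 10 libraries this ratio lay between 0.729 and 1.10. The ratio of Jchain to Igha TPM was steadier, from 0.160 to 0.248 over all 12 libraries.

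**Figure D4:**
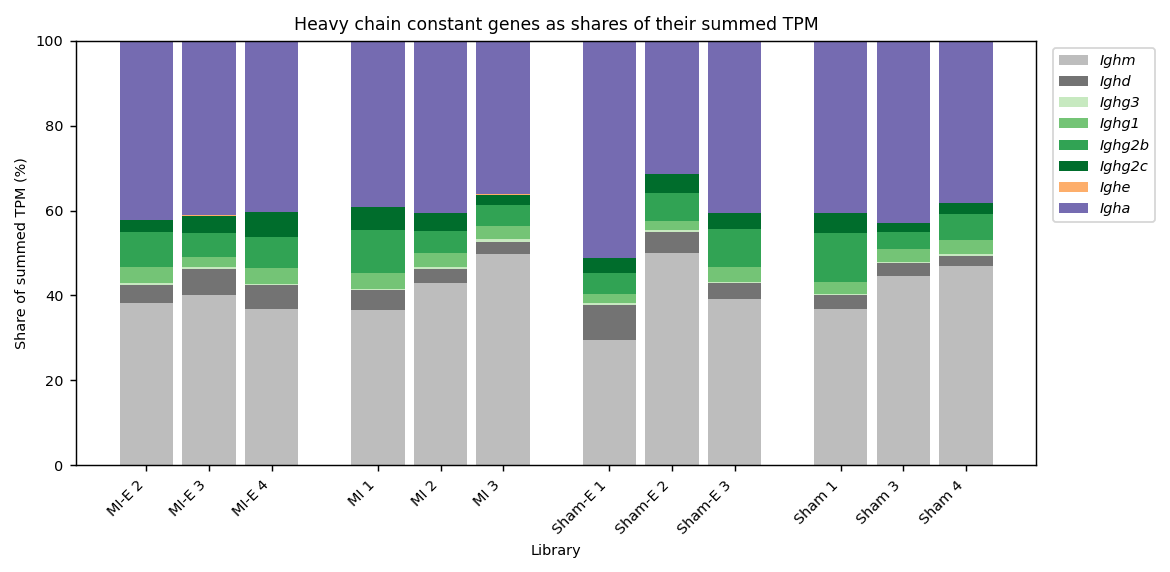
Share of each heavy chain constant gene in their summed TPM (percent, stacked to 100) for each library, ordered by group. Ighm and Igha make up most of every bar, and Sham-E 1 and Sham-E 2 show the highest and the lowest Igha share (51.2% and 31.3%).

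MI-E was set against MI to read EMPA after infarction. None of the 10 genes passed by edgeR, where 0.00661% of all genes did, and 0 had an unadjusted p under 0.05, where 8.52% of all genes were higher and 8.88% lower at that level. DESeq2 called 0 of the 10 as well, where it called 4.23% of all genes, and so did limma-voom, where 0.00661% passed. The MI libraries are shared with the comparison above, so values are given side by side. Mzb1 was the 1 gene without overlap, a state in which 11.6% of all genes were higher and 10.1% lower. It had 20.6, 23.2 and 21.3 CPM in MI-E 2, 3 and 4, against 19.4, 16.2 and 11.9 CPM in MI 1, 2 and 3. Its log2 fold change was 0.45 ± 0.31 (SE; edgeR adjusted p = 0.47).

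Igha had 587, 663 and 570 CPM in MI-E, against 559, 582 and 366 CPM in MI, and Jchain had 139, 179 and 144 CPM in MI-E, against 138, 164 and 98.8 CPM in MI. For both, MI 3 was the low library and the groups overlapped. Their log2 fold changes were 0.27 ± 0.22 and 0.20 ± 0.27 (SE; edgeR adjusted p = 0.55 and 0.74). Irf4 had 37.1, 44.4 and 30.7 CPM in MI-E, inside the range of MI, with a log2 fold change of 0.05 and a 95% interval from −1.18 to 1.28. Sdc1 had 9.18, 7.29 and 9.28 CPM in MI-E, against 5.501, 8.38 and 6.56 CPM in MI (0.34 ± 0.37, SE; edgeR adjusted p = 0.67). All 3 MI-E libraries were below the lowest Sham library in Irf4, Sdc1, Mzb1, Jchain and Igha, in Igha narrowly (663 against 665 CPM). In Xbp1 all 3 were above the highest Sham library, at 158 CPM. MI-E against Sham was not among the comparisons, so no share of all genes is given. Without that share, these positions are a description only and not a result about these genes. Xbp1 had 191, 185 and 177 CPM in MI-E, below MI 1 and 2 and around MI 3, and Prdm1 had 4.53, 3.29 and 2.23 CPM, overlapping MI. Of the IgG genes in MI-E 2, 3 and 4, Ighg1 had 49.7, 36.7 and 51.5 CPM, Ighg2b 117, 95.3 and 106 CPM, and Ighg2c 41.5, 66.2 and 80.9 CPM. All 3 overlapped with MI. The log2 fold changes of Xbp1 (−0.25 ± 0.24), Prdm1 (−0.16 ± 0.37), Ighg1 (0.08 ± 0.34), Ighg2b (0.22 ± 0.48) and Ighg2c (0.21 ± 0.43) were all smaller than or about equal to their SE, at edgeR adjusted p from 0.62 to 0.92.

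Sham-E was set against Sham to read EMPA without infarction. None of the 10 genes and 0 of all genes (0%) passed by edgeR. At an unadjusted p under 0.05, Xbp1 alone was higher, against 1.22% of all genes higher and 0.681% lower. DESeq2 called 2 of all genes (0.0132%) and none of the 10. The groups overlapped in all 10 genes, where 4.52% of all genes were higher and 4.46% lower without overlap. Sham-E 1 had 16.0 CPM of Irf4, 5.45 of Sdc1, 11.2 of Mzb1 and 326 of Xbp1. Sham-E 2 and 3 had 96.1 and 89.3 CPM of Irf4, 17.8 and 20.1 of Sdc1, 30.3 and 30.0 of Mzb1 and 165 and 152 of Xbp1, close to Sham. The secreted products divided the group otherwise, with Sham-E 3 the highest. In Sham-E 1, 2 and 3, Igha had 565, 510 and 816 CPM, Jchain 123, 144 and 274 CPM and Ighg1 23.0, 34.1 and 65.9 CPM. Ighg2b had 58.0, 110 and 186 CPM, Ighg2c 37.6, 74.2 and 76.7 CPM, and Prdm1 4.497, 2.48 and 4.89 CPM in the same libraries. Sham-E 1 was thus the lowest of its group in Jchain and all 3 IgG genes, but not in Igha or Prdm1. With Sham-E 1, log2 fold changes were −0.53 for Irf4, −0.50 for Sdc1, −0.51 for Mzb1 and 0.55 for Xbp1. Without it they were −0.07, −0.11, −0.17 and 0.11, at edgeR adjusted p of 1.0. Beside these values, the summed level of the 10 pro-B and pre-B markers was 49.0 CPM in Sham-E 1, the lowest of all libraries, against 473 to 737 CPM in Sham, and what part this plays was not tested.

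For MI-E against Sham-E, which reads infarction under EMPA, 0 of the 10 passed by edgeR or by DESeq2, where 0% of all genes passed by edgeR and 1.74% by DESeq2, and 0 had an unadjusted p under 0.05, where 5.99% of all genes were higher and 7.45% lower. The groups overlapped in all 10, where 11.7% of all genes were higher and 12.2% lower without overlap. Log2 fold changes ran from −0.84 for Irf4 to 0.17 for Ighg1, with a median of −0.19. Without Sham-E 1, 0.478% of all genes passed lower, and Sdc1 was among them at −1.14 (edgeR adjusted p = 0.025), while Irf4 stood at −1.31 (0.073), and Xbp1, at −0.22 with it, was at 0.22 (0.47). The interaction, the EMPA difference after infarction less that after sham operation, called 0 of the 10 by edgeR, where 0.00661% of all genes passed, and 0 by DESeq2, where 1.2% did. Its unadjusted p was under 0.05 for Mzb1 (0.96 ± 0.44, SE; edgeR adjusted p = 0.37) and Xbp1 (−0.80 ± 0.34, SE; edgeR adjusted p = 0.35), where 6.22% of all genes were higher and 7.28% lower. Without Sham-E 1 they were 0.63 for Mzb1 (edgeR adjusted p = 0.40) and −0.36 for Xbp1 (0.50).

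Other genes of the pathway were read from gene lists in MI against Sham. Each count is to be read beside all genes tested, of which 0.417% passed by edgeR, 7.81% by DESeq2 and 0.304% by limma-voom, and 10.9% were higher and 8.61% lower at an unadjusted p under 0.05. Of 23 other plasma cell genes tested, 0 passed by edgeR, while DESeq2 called 2, a share near that of all genes, and limma-voom 1. At an unadjusted p under 0.05 there were 3 higher and 6 lower. Log2 fold changes were negative in 13 and positive in 10, with a median of −0.18. Their summed level was higher in each MI library, at 2681 to 3402 CPM in MI and 2600 to 2673 CPM in Sham. Glcci1 was nearest to the threshold, at 16.5 ± 6.56 CPM in MI, against 67.3 ± 5.64 CPM in Sham (SD, n = 3; log2 −2.02 ± 0.38, SE; edgeR adjusted p = 0.0502). Sec11c, a subunit of the signal peptidase, and Derl3, which helps to clear misfolded proteins from the endoplasmic reticulum, had log2 fold changes of 0.35 ± 0.12 and −1.10 ± 0.38 (SE; edgeR adjusted p = 0.13 and 0.14).

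Of 41 secretory pathway genes, among them known XBP1 targets, 0 passed by edgeR, 1 by DESeq2 and 0 by limma-voom, with 1 higher and 1 lower at an unadjusted p under 0.05. Their log2 fold changes were positive in 34, with a median of 0.20, beside 52.4% positive among all genes. Their sums overlapped, at 5294 to 7783 CPM in MI and 5581 to 6044 CPM in Sham. In Sham-E against Sham, 35 were positive (median 0.30), with sums of 10680, 6030 and 5801 CPM in Sham-E 1, 2 and 3. Syvn1, the ubiquitin ligase that disposes of misfolded proteins, had 90.0 ± 13.7 CPM in MI and 133 ± 18.2 CPM in Sham (log2 −0.57 ± 0.15, SE; edgeR adjusted p = 0.084). Sec61b, of the channel through which new proteins enter the endoplasmic reticulum, had 96.4 ± 21.2 CPM in MI and 63.6 ± 6.03 CPM in Sham (log2 0.60 ± 0.19, SE; edgeR adjusted p = 0.13).

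Of 10 factors that keep B-cell identity, 0 passed by edgeR, 3 by DESeq2 (Id3, Pax5 and Spib; 7.81% of all genes) and 0 by limma-voom. At an unadjusted p under 0.05, 5 were lower and 0 higher, against 8.61% and 10.9% of all genes, and the median log2 fold change was −0.77. Bach2 had 46.7 ± 24.7 CPM in MI and 121 ± 28.6 CPM in Sham (log2 −1.37 ± 0.56, SE; edgeR adjusted p = 0.21). Pax5, which commits cells to the B lineage, had 85.5 ± 25.8 CPM in MI and 190 ± 27.7 CPM in Sham (log2 −1.15 ± 0.31, SE; edgeR adjusted p = 0.095). Both factors hold back plasma cell formation. Of the 10, 6 were lower in each MI library than in each Sham library, Bach2 and Pax5 among them, and 1, Spi1, was higher. Over all genes, 13.8% were lower and 13.4% higher without overlap.

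Of 16 genes of class switching and the germinal centre, 0 passed by edgeR, 3 by DESeq2 (7.81% of all genes) and 0 by limma-voom. At an unadjusted p under 0.05, 7 were lower and 1 higher, against 8.61% and 10.9% of all genes. Ung, which removes uracil from DNA, had a log2 fold change of −0.78 ± 0.20 and Xrcc6, of the end-joining machinery, −0.97 ± 0.23 (SE; edgeR adjusted p = 0.077 and 0.067). Of 7 other immunoglobulin constant genes, 0 passed by edgeR or limma-voom and 2 by DESeq2, with 2 lower at an unadjusted p under 0.05. They were the lambda light chain genes Iglc2 (−1.59 ± 0.32) and Iglc3 (−1.09 ± 0.25; SE, edgeR adjusted p = 0.055 and 0.063). Ighm had a log2 fold change of −0.56 ± 0.29, Ighd −0.15 ± 0.27, Ighg3 −0.03 ± 0.33 and Igkc −0.17 ± 0.23 (SE; edgeR adjusted p from 0.29 to 0.97).

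Of 15 genes of the plasma cell survival niche, Il6ra, a receptor chain for interleukin-6, passed by edgeR in MI against Sham. It had 188 ± 5.88 CPM in MI, against 109 ± 11.4 CPM in Sham (SD, n = 3; log2 0.79 ± 0.15, SE; edgeR adjusted p = 0.047), and it is also made by myeloid cells. The call was lost in 14 of 24 alternatives, at adjusted p from 0.0504 to 0.225, among them those without any one of the Sham or MI-E libraries, MI 1, MI 3 or Sham-E 2. Its partner Il6st stood at 0.54 ± 0.15 on the log2 scale (SE; edgeR adjusted p = 0.098), and the survival cytokine gene Tnfsf13, which encodes APRIL, −0.08 ± 0.50 (0.95).

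Markers of other cells, some of which could carry these transcripts, were read in the same comparison. Among these marker lists, sums of the B-lineage and plasmacytoid dendritic cell lists did not overlap between MI and Sham. Sums of the remaining marker lists did, for stroma and osteoblast markers narrowly. Lack of overlap was not limited to these lists. The class switching sum was 283 to 333 CPM in MI and 419 to 433 CPM in Sham. The survival niche sum was higher in MI, at 3904 to 4288 CPM against 3565 to 3833 CPM in Sham. The summed level of 10 pro-B and pre-B markers was 178 to 323 CPM in MI and 473 to 737 CPM in Sham, and all 10 had negative log2 fold changes (median −1.50). Over 12 mature B markers it was 1081 to 1526 CPM in MI and 1598 to 2293 CPM in Sham, again with all 12 negative (median −0.63). Over 12 plasmacytoid dendritic cell markers it was 260 to 386 CPM in MI and 436 to 525 CPM in Sham, with 10 of 12 negative. Macrophage markers had 10 of 12 positive, at 1045 to 1970 CPM in MI and 970 to 1075 CPM in Sham, and stroma and osteoblast markers 8 of 10 negative, at 107 to 185 CPM in MI and 184 to 317 CPM in Sham. Of that list Bglap, the osteocalcin gene, passed by edgeR, at 0.312 ± 0.0751 CPM in MI, against 3.51 ± 1.33 CPM for Sham (SD, n = 3 each; log2 −3.47 ± 0.62, SE; edgeR adjusted p = 0.037), and its close copies make its counts uncertain. T cell markers had 7 of 10 positive, at 70.3 to 97.7 CPM in MI and 69.7 to 104 CPM in Sham, and neutrophil markers 9 of 12, at 27860 to 51230 CPM in MI and 34080 to 35410 CPM in Sham. None of these markers was at 0 in all libraries of either group. Their part in the values of the 10 genes was not tested. In MI-E, the pro-B and pre-B sum was 173 to 233 CPM and the mature B sum 1669 to 2225 CPM, the first below and the second overlapping their ranges in Sham.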

How the data were processed

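Per the submitters' processing notes, CASAVA 1.8, STAR 2.4.0j, RSEM and build mm10 were used; the sources used here do not give the annotation release or strand setting. The authors deposited expected counts per gene, as RSEM estimates them and already whole, and TPM values, which divide by transcript length and share 1 sum per library. Column numbers differ from sample titles in Sham and MI-E, so those columns were matched to their group only, and libraries are named by column number. The members and gene lists were chosen with earlier results of these data known.

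Genes were kept by filterByExpr of edgeR 4.0.16 (R 4.3.3), scaled by TMM, and tested by its quasi-likelihood F-test on all 12 libraries with a mean per group (8 residual degrees of freedom). P-values were Benjamini-Hochberg adjusted over 15119 genes, with a threshold of 0.05. Levels in CPM are counts over the TMM-scaled library size. Each standard error (SE) came from dividing a log2 fold change by the root of its F. The 95% intervals took this SE with a t distribution on 8 degrees of freedom, which is not the reference of the F-test. An interval can thus include 0 at an unadjusted p under 0.05, as for Xbp1 in Sham-E against Sham. Named were all 10 genes, up to 3 genes of smallest p per list and a few fixed genes, and the 3 genes nearest in log2 CPM (prior count 2, mean of at least 1, no Gm or Rik genes). Motif and 50-base window matches were exact. Alternatives used DESeq2 1.42.0 and limma 3.58.1, with pseudocounts of 1 and 0.1 on TPM. Counts per library were 21175087 to 24606783, so counting error matters most for Prdm1, with 49 to 112 counts.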

Additional observations from a re-analysis of the deposited data

How the results depend on the processing

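Of 1190 recomputed fold changes of the 10 genes, 1117 kept their direction and side of the threshold, 12 newly passed it and 61 changed sign, none of these past the threshold in either setting. The number of genes past the threshold in MI against Sham was 63, and it was 156 with no filter on low counts, 1066 with DESeq2, 282 and 269 with limma on log2(TPM + 1) and log2(TPM + 0.1), 344 with only the groups compared, and 1 to 1224 with single libraries left out (1 without Sham 1 or Sham 4, 1224 without Sham-E 1). In MI-E against MI it was 1, and 33, 577, 50, 67 and 3 under the same alternatives, 9 with limma on unfiltered TPM, and 1 to 988 with single libraries left out (988 without MI 1). In Sham-E against Sham it was 0, and 2 with DESeq2 or limma on unfiltered TPM. In MI-E against Sham-E it was 0, and 212 with DESeq2, 1 with limma on unfiltered TPM, and 0 to 117 with single libraries left out (117 without Sham-E 1). In the interaction it was 1, and 167 with DESeq2, 0 with limma-voom, 7, 14 and 7 with limma on log2(TPM + 1), on log2(TPM + 0.1) and on unfiltered TPM, and 1 to 150 with single libraries left out (150 without MI 1). The causes were not tested. The column number as a replicate block left 1 gene in MI against Sham and 0 in the interaction, and turned Prdm1 (0.060), Irf4 (−0.15) and Ighg1 (−0.065) in MI-E against MI, Prdm1 in Sham-E against Sham (−0.12) and in the interaction (0.18), and Igha in MI-E against Sham-E (0.0022). Same-numbered libraries did not deviate together (r from −0.21 to 0.15 over 13 pairs, median −0.01), so the number was taken as a name only. Prdm1 in Sham-E against Sham was −0.0085 by limma-voom. Ighg2c in MI-E against Sham-E, at 0.0002, was −0.0081 with DESeq2 size factors, −0.0078 with DESeq2, −0.0106 with the compared groups alone, −0.0010 without immunoglobulin genes in the library size, −0.0157 without a filter, and −0.18 with each of the 3 limma fits on TPM. With single libraries left out, the lowest and highest values of the fold changes that changed sign were as follows. In MI against Sham they were Prdm1 −0.42 to 0.14 and Ighg2c −0.45 to 0.25. For MI-E against MI they were Prdm1 −0.45 to 0.22, Irf4 −0.19 to 0.50, Ighg1 −0.13 to 0.25, Ighg2b −0.069 to 0.75 and Ighg2c −0.12 to 0.55. For Sham-E against Sham they were Prdm1 −0.14 to 0.28, Ighg2b −0.68 to 0.28 and Ighg2c −0.077 to 0.48. For MI-E against Sham-E they were Xbp1 −0.41 to 0.22, Mzb1 −0.48 to 0.068, Jchain −0.44 to 0.21, Ighg1 −0.12 to 0.69, Ighg2b −0.48 to 0.34, Ighg2c −0.26 to 0.21 and Igha −0.19 to 0.17. In the interaction they were Prdm1 −0.48 to 0.18, Ighg2b −0.050 to 0.93 and Ighg2c −0.26 to 0.45. From CPM in place of TPM, the Igha share reached 32.1% (MI-E), 29.8% (MI) and 31.2% (Sham), and the summed IgG share 11.4% in MI-E and 10.4% in Sham-E. With Ighm left out of the denominator the Igha share reached 67.0% (MI-E), 68.3% (MI), 67.3% (Sham-E) and 71.4% (Sham), and the IgG share 23.7%, 24.5%, 22.8% and 23.2%. Counting depth limits Prdm1 and Tnfrsf17.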

Other observations

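The IgG subclasses did not keep a fixed balance between libraries of a group. The ratio of Ighg2b to Ighg2c TPM was 2.81, 1.43 and 1.29 in MI-E 2, 3 and 4, 1.89, 1.25 and 1.93 in MI 1, 2 and 3, 1.52, 1.47 and 2.404 in Sham-E 1, 2 and 3, and 2.398, 1.93 and 2.32 in Sham 1, 3 and 4. The ratio of Igha to the summed IgG genes ran from 2.04 in MI 1 to 4.82 in Sham-E 1. The coefficient of variation within Sham was 49.0% for Ighg2b and 41.1% for Ighg2c in CPM, against 14.3% for Ighg1, 15.6% for Igha and 9.12% for Jchain (n = 3 each).

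Ighd, the constant gene of naive mature B cells, had its higher means in the EMPA groups, at 145 ± 34.7 CPM in MI-E, against 87.1 ± 34.9 CPM in MI, and at 150 ± 16.5 CPM in Sham-E and 96.5 ± 18.9 CPM in Sham (SD, n = 3 each). Libraries of MI-E and MI overlapped, while each Sham-E library was above each Sham library, as held for 4.52% of all genes. Neither difference passed over all genes, at log2 0.73 ± 0.27 for MI-E against MI (SE; edgeR adjusted p = 0.21) and 0.64 ± 0.27 for Sham-E against Sham (SE; edgeR adjusted p = 0.9996). Of the 7 other immunoglobulin constant genes, Ighd included, 2 were positive and 5 negative in Sham-E against Sham (median −0.32). In MI-E against MI, 6 were positive and 1 negative (median 0.22). Beside these values, all 12 mature B markers had positive log2 fold changes in MI-E against MI (median 0.53) and 7 of 12 in Sham-E against Sham (median 0.035), and their part was not tested. All immunoglobulin genes with Jchain together took 0.287 to 0.324% of counts in MI-E, 0.203 to 0.292% in MI, 0.234 to 0.447% in Sham-E and 0.381 to 0.462% in Sham.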
